A study of Mus musculus with 6 samples.

Results

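The MiT/TFE transcription factors are the family of 4 related proteins encoded by Mitf, Tfeb, Tfe3 and Tfec. Their genes were taken by symbol from the deposited table of gene expression, which lists 26106 genes, and all 4 were among the 15590 genes with enough counts to be tested. The cells were primary wild-type bone marrow-derived macrophages of 6-week-old male C57BL/6 mice, grown in M-CSF, the growth factor of the macrophage lineage, and then driven towards osteoclasts, the cells that resorb bone. Every culture received 10% fetal bovine serum, M-CSF at 30 ng/mL and, at 100 ng/mL, RANKL, the cytokine that starts osteoclast formation, for 2 days. The Ctrl group (n = 3) received nothing further that the labels name, so no vehicle is recorded for it, and the ZM group (n = 3) also received 10 μM ZM, the compound ZM-306416, an inhibitor of the tyrosine kinase activity of VEGF receptors. All libraries are labelled as 1 batch. No label says that a group's 3 samples are of different animals or dishes, and the p-values therefore speak of the spread among these samples alone, which may be technical.

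The 4 factors carry a basic helix-loop-helix and leucine zipper domain, bind DNA as homodimers or as heterodimers with one another, and recognise E-box sequences with the core CACGTG and the related M-box, TCATGTG. Where nutrients are plentiful, the Rag GTPases bring members such as Tfeb and Tfe3 to the lysosome surface. There mTORC1 phosphorylates them, and 14-3-3 proteins hold them in the cytoplasm. Dephosphorylation, for example by calcineurin, lets them enter the nucleus and raise genes of lysosomes and autophagy, a set called the CLEAR network. In mouse osteoclasts Mitf and Tfe3 act redundantly on genes of bone resorption together with Spi1 (PU.1) and Nfatc1, Tfeb has been tied to lysosome formation downstream of RANKL, and Tfec is expressed mainly in myeloid cells. Control of these proteins by phosphorylation and location leaves no direct trace in RNA counts.

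Of the 4 factors, Tfe3 rose with ZM, by 1.40-fold, and the other 3 did not pass the test. Tfeb and Tfec were higher in every ZM library than in every Ctrl library, with mean differences of 1.76-fold and 1.33-fold that missed the threshold. Mitf, the factor with the highest level per length in the Ctrl libraries, overlapped between the groups. The test was edgeR's quasi-likelihood test on all 15590 genes, with Benjamini-Hochberg adjustment and a threshold of 0.05. By it 11.0% of all tested genes were called, 5.54% as higher and 5.44% as lower, and the median gene had a log2 fold change of 0.0027. By unadjusted p under 0.05, which Tfe3, Tfeb and Tfec met, 32.0% of all genes passed. Groups without overlap, as for these 3 factors, were found in 42.9% of all genes.

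Tfe3 (ENSMUSG00000000134) encodes the factor that shares the control of osteoclast genes with Mitf. It lies on the forward strand of chrX:7762560-7775202 (GRCm38, GENCODE M21), where 14 transcripts are annotated. Its level, in CPM, which are counts scaled to the size of the library after a correction for its composition, was 115, 115 and 122 in the Ctrl libraries, given here and below in the order of replicates 1, 2 and 3, and 155, 149 and 189 in the ZM libraries. Every ZM library was above every Ctrl library, and ZM replicate 3 was the highest. The means were 117 ± 3.83 (SD, n = 3) and 165 ± 21.6 CPM (SD, n = 3), a log2 fold change of 0.49 with a standard error of 0.11 and an adjusted p of 0.0366. The call was lost when any 1 of the 3 Ctrl libraries was left out (adjusted p from 0.144 to 0.170) or ZM replicate 1 (adjusted p = 0.0806). It held without ZM replicate 2 (adjusted p = 0.0130) and without ZM replicate 3, where the log2 fold change was 0.38 (adjusted p = 0.00570).

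Tfeb (ENSMUSG00000023990), the factor best known for lysosome formation, lies on the forward strand of chr17:47737030-47792419, with 15 annotated transcripts. Its levels were 36.1, 33.7 and 38.3 CPM in the Ctrl libraries and 54.0, 45.7 and 90.2 CPM in the ZM libraries. The groups did not overlap, and ZM replicate 3 stood far above the other ZM libraries. The means were 36.0 ± 2.29 and 63.3 ± 23.7 CPM (SD, n = 3 each), a log2 fold change of 0.81 with a standard error of 0.24 and an edgeR adjusted p of 0.0695. The fold depended on 1 library, since without ZM replicate 3 the log2 fold change was 0.47 and passed the test (adjusted p = 0.0103). It also passed without ZM replicate 2, with a log2 fold change of 1.00 (adjusted p = 0.0154), and with DESeq2 (adjusted p = 0.0127).

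Tfec (ENSMUSG00000029553), the myeloid member, lies on the reverse strand of chr6:16833373-16898441, with 5 annotated transcripts. It was at 54.6, 54.4 and 53.8 CPM in the Ctrl libraries and at 69.8, 59.5 and 86.9 CPM in the ZM libraries. The 3 Ctrl values were almost the same, and each ZM value was above them. The means of 54.3 ± 0.415 and 72.1 ± 13.8 CPM (SD, n = 3 each) gave a log2 fold change of 0.41 with a standard error of 0.14 and an edgeR adjusted p of 0.0984. Without ZM replicate 3 the log2 fold change was 0.25, and without ZM replicate 2 it was 0.53 and passed the test (adjusted p = 0.0158).

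Mitf (ENSMUSG00000035158), the factor whose dominant-negative alleles in mice lead to osteopetrosis, lies on the forward strand of chr6:97807052-98021349, with 8 annotated transcripts. It was at 105, 102 and 102 CPM in the Ctrl libraries and at 87.6, 103 and 84.6 CPM in the ZM libraries. ZM replicate 2 was within the Ctrl range and the other ZM libraries were below it. The means were 103 ± 1.65 and 91.7 ± 9.93 CPM (SD, n = 3 each), with a log2 fold change of -0.17, a standard error of 0.10 and an edgeR adjusted p of 0.282. Without ZM replicate 2 the log2 fold change was -0.26 and passed the test (adjusted p = 0.0435). The 4 genes drew between 1683 and 8941 counts per library, and no annotated exon of another gene overlaps theirs, so the counts of each gene are its own as far as the annotation shows. The counts are per gene, so the alternative promoters and isoforms of Mitf and of the other 3 genes were not separated.

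**Figure D1:**
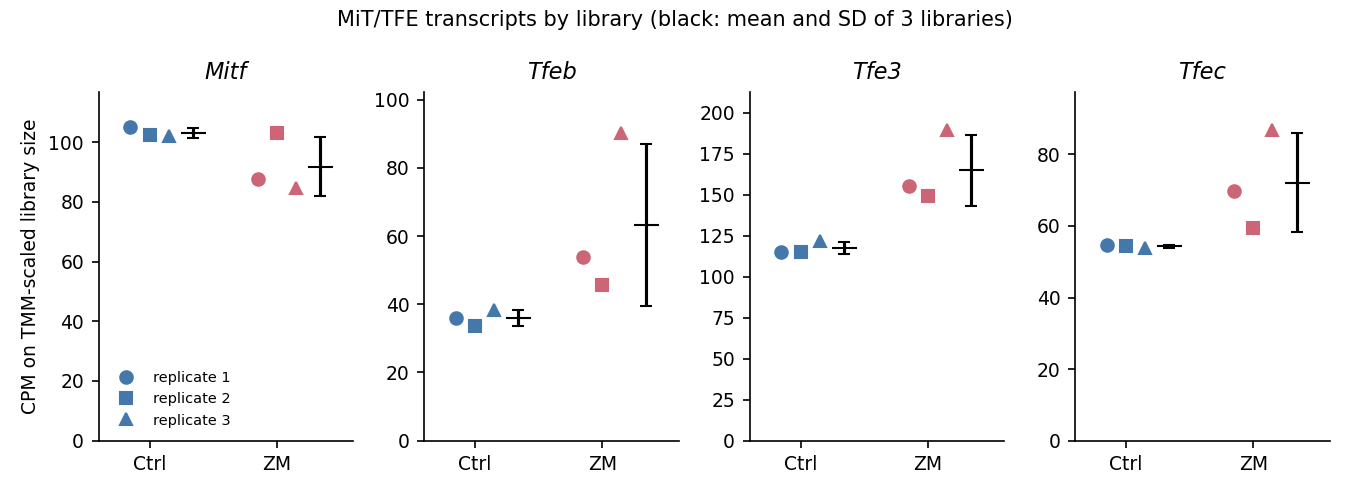
Level of Mitf, Tfe3, Tfec and Tfeb in each library, in CPM, with the 3 Ctrl and the 3 ZM libraries as points and the group mean and SD as line and bar. The ZM points lie above all Ctrl points for Tfe3, Tfec and Tfeb, while ZM replicate 2 of Mitf, at 103 CPM, lies within the Ctrl range.

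Levels of the 4 genes were compared with each other per length, on the FPKM scale (fragments scaled to gene length and to library size), as the authors deposited it. The FPKM order was the same in the 3 Ctrl libraries, with Mitf first, then Tfe3, Tfec and Tfeb. Mitf was at 17.0 ± 0.325 FPKM, Tfe3 at 13.0 ± 0.353, Tfec at 9.92 ± 0.128 and Tfeb at 6.50 ± 0.382 (SD, n = 3 each), and no 2 neighbours in this order overlapped. In the ZM group Tfe3 came first by its mean, at 17.3 ± 1.30 FPKM, then Mitf at 14.5 ± 2.25, Tfec at 12.5 ± 1.71 and Tfeb at 10.8 ± 3.39 (SD, n = 3 each). There each pair of neighbours overlapped in range. The gene lengths behind these values were 6196 bases for Mitf, 9261 for Tfe3, 5594 for Tfec and 5669 for Tfeb. Each equals the union of the gene's annotated exons. By CPM, which uses no length, Tfe3 was above Mitf in every Ctrl library, at 115, 115 and 122 against 105, 102 and 102. The place of Mitf before Tfe3 and the shares given below therefore depend on these lengths. Which annotated transcripts were present was not tested.

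The order in the ZM group also differed from library to library. In ZM replicate 2 it was that of the Ctrl libraries, with Mitf at 17.0 FPKM and Tfe3 at 16.4 FPKM. In ZM replicate 1 Tfe3, at 16.7 FPKM, passed Mitf, at 14.1 FPKM, and the order of the others was kept. In ZM replicate 3 Tfe3 was first at 18.8 FPKM, followed by Tfeb at 14.6, Tfec at 14.3 and Mitf at 12.5 FPKM. By FPKM, Mitf was thus first in each Ctrl library and last in ZM replicate 3.

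The summed FPKM of the 4 genes was 46.7, 45.8 and 46.8 in the Ctrl libraries and 52.6, 52.5 and 60.2 in the ZM libraries. The ZM sums were all above the Ctrl sums, with means of 46.4 ± 0.552 and 55.1 ± 4.44 (SD, n = 3 each), a ratio of 1.19. Unlike the CPM values, these sums carry no correction for library composition. With that correction the difference of the means was 11.3, against 8.71 without it. Mitf made up 37.2%, 37.0% and 35.8% of the summed FPKM in the Ctrl libraries and 26.7%, 32.3% and 20.8% in the ZM libraries, without overlap. The mean share of Mitf was 36.7% ± 0.758 in Ctrl and 26.6% ± 5.75 in ZM, that of Tfe3 27.9% ± 0.621 and 31.4% ± 0.265, and that of Tfec 21.4% ± 0.456 and 22.7% ± 1.70 (SD, n = 3 each). The share of Tfeb ran from 13.3% to 14.7% in the Ctrl libraries and was 18.0%, 15.7% and 24.3% in the ZM libraries. Mitf was lower and Tfe3 and Tfeb were higher in every ZM library than in every Ctrl library by these shares, while those of Tfec overlapped. A two-sided exact permutation test over the 6 libraries gave p = 0.1 for the sum and for the shares of Mitf, Tfe3 and Tfeb, the smallest p that 3 against 3 allows, and p = 0.4 for Tfec, so the design cannot reach 0.05 for these values.

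**Figure D2:**
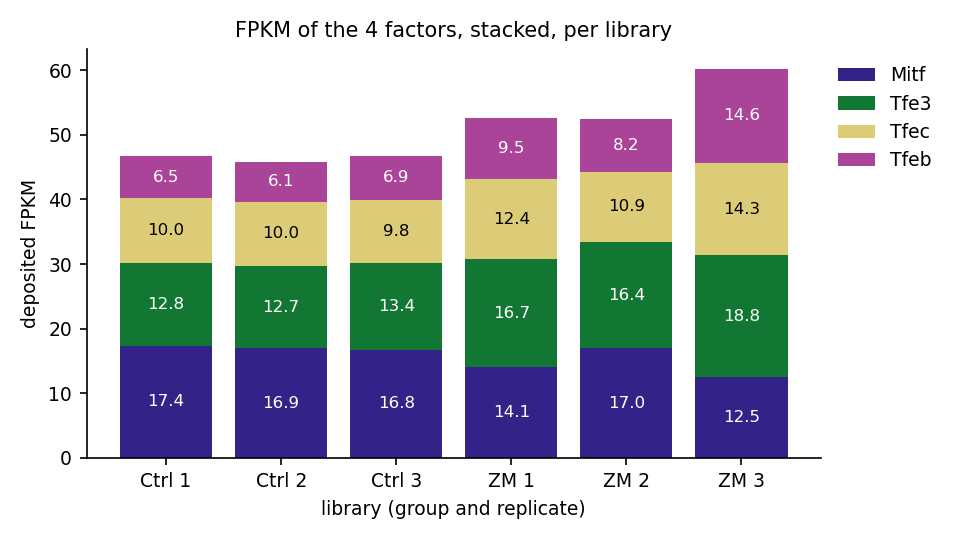
FPKM of the 4 family members in each library, as the authors deposited it, stacked so that the height of a bar is the summed FPKM. The bars are between 45.8 and 46.8 high in the Ctrl libraries and between 52.5 and 60.2 in the ZM libraries, while the part of Mitf is lowest in ZM replicate 3, at 12.5 FPKM.

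The libraries held between 45512004 and 54256377 counts. The 3 ZM libraries differed from one another more than the 3 Ctrl libraries did, and ZM replicate 3 stood apart: the first principal component (65.8% of the variance) placed it at 87.8, with ZM replicate 1 at 28.3, ZM replicate 2 at 4.29 and all Ctrl libraries from -43.6 to -37.4. The cells carried the markers of their label and of the lineage they were driven to. The 9 macrophage markers were all detected, and 6 of them rose (66.7%, against 5.54% of all genes). The sum of the 9 went from 3231-3427 CPM in the Ctrl libraries to 4133-6236 CPM in the ZM libraries. The 10 osteoclast markers all fell (100%, against 5.44% of all genes), and their sum went from 4983-5290 CPM to 558-971 CPM. In both lists ZM replicate 3 was at the extreme, as it was for Tfe3, Tfeb and Tfec and, at the low end, for Mitf. The part of the cell mixture in the levels of the 4 factors was not tested. In bulk RNA, fewer cells of a type and less RNA per cell cannot be told apart.

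**Figure D3:**
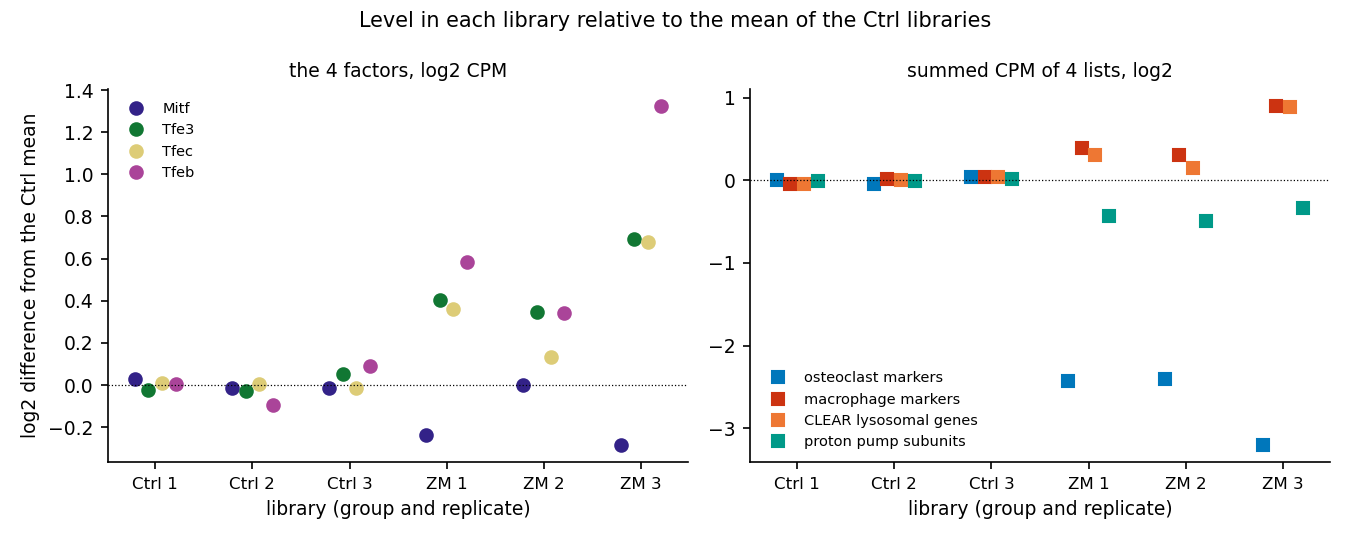
Difference of each library from the mean of the Ctrl libraries on the log2 scale, for the 4 factors (left) and for the summed CPM of the osteoclast markers, the macrophage markers, the CLEAR lysosomal genes and the proton pump subunits (right). ZM replicate 3 has the highest values of Tfe3, Tfec, Tfeb, the macrophage sum and the lysosomal sum, and the lowest of Mitf and the osteoclast sum.

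Upstream of the factors, 1 gene of the nutrient switch at the lysosome passed the test. Of 22 tested genes of mTORC1, the Rag GTPases, the Ragulator complex, folliculin and its partners and the TSC complex, none rose and 1 fell (4.55%, against 11.0% of all genes), with a median log2 fold change of 0.13. The gene that fell was Rragd, a Rag GTPase that itself has been described as a target of MiT/TFE factors in other cells. Rragd was at 35.6, 34.1 and 32.1 CPM in the Ctrl libraries and at 21.7, 25.9 and 26.2 CPM in the ZM libraries, without overlap. Its log2 fold change was -0.46 (SE 0.11, edgeR adjusted p = 0.0410). Among the other 21, the groups were often apart without a call: over the list, 7 genes were higher and 6 lower in all ZM libraries than in all Ctrl libraries, where 21.5% and 21.4% of all genes were. Without ZM replicate 3, where 19.5% of all genes were called, 3 genes of the list rose and 6 fell. Calls over the list ran from 0 to 13 when single libraries were left out, where 0.921% to 31.4% of all genes were called. The call of Rragd was lost without any 1 Ctrl library and without ZM replicate 1.

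Of 29 tested genes for kinases, phosphatases, 14-3-3 proteins and others known to affect phosphorylation or location of MiT/TFE factors, 3 rose and 1 fell. This was 13.8%, against 11.0% of all genes, with a median log2 fold change of 0.08. Sfn, which encodes the sigma member of the 14-3-3 proteins, was at 8.14, 9.05 and 9.15 CPM in the Ctrl libraries and at 20.3, 14.8 and 31.8 CPM in the ZM libraries. It was higher in every ZM library, with a log2 fold change of 1.34 (SE 0.26, edgeR adjusted p = 0.0238). Mapk3, which encodes the kinase ERK1, averaged 131 ± 5.79 CPM without ZM and 249.9 ± 89.2 CPM with it (SD, n = 3 each), with a log2 fold change of 0.93 (SE 0.23, edgeR adjusted p = 0.0440). Mapk14, which encodes the stress-activated kinase p38 alpha, an activator of Mitf downstream of RANKL in osteoclasts, was at 163 ± 3.43 and 208 ± 6.75 CPM (SD, n = 3 each), with a log2 fold change of 0.35 (SE 0.08, edgeR adjusted p = 0.0376). Prkca, a protein kinase C gene named after its values were seen, fell from 3.79 ± 0.390 to 2.14 ± 0.390 CPM (SD, n = 3 each), with a log2 fold change of -0.82 (edgeR adjusted p = 0.0419). Sfn and Mapk3 were at their highest in ZM replicate 3, as Tfeb was. Calls over the list ran from 0 to 13 when single libraries were left out, where 0.921% to 31.4% of all genes were called. The calls of Sfn, Mapk3 and Mapk14 were lost without any 1 Ctrl library and without ZM replicate 1. That of Mapk14 was also lost with no filter on low counts (adjusted p = 0.0575) and without composition scaling (adjusted p = 0.0697), and that of Mapk3 with limma-voom (adjusted p = 0.0503). Without ZM replicate 3 the log2 fold change of Mapk3 was 0.61.

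Among the nuclear partners and co-regulators, 13 genes were listed, 11 were tested, 1 fell (9.09%, against 11.0% of all genes) and none rose. The median log2 fold change was -0.19. Nfatc1, the master regulator of osteoclast formation and a partner of Mitf on resorption genes, was at 273, 244 and 262 CPM in the Ctrl libraries and at 78.8, 83.7 and 63.0 CPM in the ZM libraries. The groups were far apart, with a log2 fold change of -1.79 (SE 0.13, edgeR adjusted p = 0.00153). Spi1 (PU.1), which binds beside Mitf at these genes and is named here after its values were seen, was at 528, 540.0 and 578 CPM in Ctrl and at 636, 513 and 773 CPM in ZM. The Spi1 groups overlapped, with a log2 fold change of 0.22 (edgeR adjusted p = 0.327). Nfatc1, which is also among the osteoclast markers here, stayed past the threshold without any single library. The calls over the 11 genes then ran from 1 to 6, where 0.921% to 31.4% of all genes were called.

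The osteoclast genes described as targets of Mitf or Tfe3 were mostly lower with ZM. Of 7 such genes, 5 fell and none rose (71.4%, against 11.0% of all genes), with a median log2 fold change of -1.82. The count is not independent of the osteoclast state, since 4 of the 7 are also osteoclast markers here. Acp5, which encodes tartrate-resistant acid phosphatase, was at 834, 799 and 890.0 CPM in the Ctrl libraries and at 129.7, 112 and 68.3 CPM in the ZM libraries, a log2 fold change of -3.02 (SE 0.23, edgeR adjusted p = 0.00153). Ctsk, which encodes cathepsin K, the protease of bone collagen, was at 1043, 949.6 and 1035 CPM and at 149, 137 and 81.4 CPM, a log2 fold change of -3.04 (SE 0.23, edgeR adjusted p = 0.00153). These are 8.13-fold and 8.23-fold lower means, and in both genes the lowest value was that of ZM replicate 3.

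Oscar, which encodes a co-stimulatory receptor of osteoclasts, was at 10.2, 9.17 and 9.29 CPM in the Ctrl libraries and at 1.43, 0.993 and 0.508 CPM in the ZM libraries, with a log2 fold change of -3.28 (SE 0.33, edgeR adjusted p = 0.00312). Atp6v0d2, which encodes the d2 subunit of the proton pump, was at 684, 643 and 687 CPM and at 193, 196 and 182 CPM, with a log2 fold change of -1.82 (SE 0.09, edgeR adjusted p = 0.000921). Clcn7, which encodes the chloride-proton exchanger of lysosomes and of the resorbing membrane, was at 440.3, 437 and 451 CPM and at 273, 263 and 238 CPM, with a log2 fold change of -0.78 (SE 0.09, edgeR adjusted p = 0.00480). In all 5 genes that fell, every ZM library was below every Ctrl library.

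The other 2 genes of this group did not pass the test. Ostm1, which encodes the partner subunit of the Clcn7 exchanger, averaged 66.5 ± 2.53 CPM without ZM and 76.8 ± 11.1 CPM with it (SD, n = 3 each), a log2 fold change of 0.21 (SE 0.12, edgeR adjusted p = 0.260). Gpnmb, which encodes a membrane glycoprotein of lysosomes, was the most abundant of the 7 by CPM, at 12905, 13799.6 and 13871 CPM in Ctrl and 11939, 11377 and 12925 CPM in ZM. The Gpnmb groups overlapped by the narrowest of margins, with a log2 fold change of -0.16 (SE 0.09, edgeR adjusted p = 0.265). Clcn7 and Ostm1, whose proteins work as 1 complex, thus differed in their RNA: the Clcn7 message was lower in every ZM library, and that of Ostm1 was in no ZM library below the Ctrl range. The number of called genes among the 7 ran from 4 to 6 when single libraries were left out, against 0.921% to 31.4% of all genes. The call of Clcn7 was lost without Ctrl replicate 3.

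The lysosomal part of the CLEAR network had its highest levels in ZM replicate 3. Of 28 tested genes for lysosomal enzymes and membrane proteins, 2 rose and 1 fell (10.7%, against 11.0% of all genes), with a median log2 fold change of 0.24. In 14 of the 28 the ZM libraries were all above the Ctrl libraries, where 21.5% of all genes were, and in 2 they were all below. Their summed level was 16703, 17285 and 17683 CPM in the Ctrl libraries and 21340.0, 19116 and 31919 CPM in the ZM libraries. Without ZM replicate 3, where 19.5% of all genes were called, 8 of the 28 rose and 1 fell, while the median log2 fold change was 0.07, against 0.24 with it.

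Lamp1, which encodes an abundant membrane protein of lysosomes, was at 1081, 1094 and 1145 CPM in the Ctrl libraries and at 1768, 1484 and 2569 CPM in the ZM libraries, a log2 fold change of 0.81 (SE 0.19, edgeR adjusted p = 0.0397). Pip4p1, which encodes a lipid phosphatase of late endosomes and lysosomes, was at 49.0 ± 0.953 and 80.3 ± 19.8 CPM (SD, n = 3 each), a log2 fold change of 0.71 (SE 0.17, edgeR adjusted p = 0.0403). Its value is uncertain, because its exons overlap those of Apex1 on the opposite strand by 877 bases and whether the counting used strand is not given in the sources used here. Clcn7, described above, was the member that fell, and is counted in both lists. Lamp1 and Clcn7 thus moved in opposite directions. The calls of Lamp1 and Pip4p1 were lost without any 1 Ctrl library and without ZM replicate 1. Those over the 28 genes ran from 0 to 14 when single libraries were left out, against 0.921% to 31.4% of all genes.

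The subunits of the V-type proton pump, which acidifies lysosomes and the bone surface, had more calls downwards than upwards. Of 14 tested subunit genes, 7 fell, 1 rose and 6 did not pass the test (57.1% called, against 11.0% of all genes). The median log2 fold change was -0.23. Atp6v1b2, which encodes the B2 subunit of the catalytic part, was at 920.5, 889 and 938 CPM in the Ctrl libraries and at 573, 525 and 533 CPM in the ZM libraries, a log2 fold change of -0.75 (SE 0.09, edgeR adjusted p = 0.00470). Atp6v0a1, which encodes the a1 subunit of the membrane part, was at 110.1, 115 and 105 CPM and at 168, 174 and 246 CPM, a log2 fold change of 0.83 (SE 0.15, edgeR adjusted p = 0.0202). The largest fall among the 14 was that of Atp6v0d2, given above, which is also among the osteoclast markers and the osteoclast target genes. The number of called subunits ran from 1 to 9 when single libraries were left out, against 0.921% to 31.4% of all genes. Without a Ctrl library, where 0.921% to 1.4% of all genes were called, 1 or 2 subunits fell and none rose. The call of Atp6v0a1 was lost without any 1 Ctrl library and that of Atp6v1b2 without Ctrl replicate 3.

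Of 17 tested autophagy genes of the CLEAR network, 1 fell and none rose (5.88%, against 11.0% of all genes). The median log2 fold change was 0.20. The gene that fell was Atg9b, a lipid scramblase gene of the autophagosome named after its values were seen, with means of 3.62 ± 0.883 and 1.35 ± 0.159 CPM (SD, n = 3 each; edgeR adjusted p = 0.0140). The ZM libraries were all above the Ctrl libraries in 8 of the 17 genes and all below in 4, against 21.5% and 21.4% of all genes. Without ZM replicate 3, where 19.5% of all genes were called, 5 of the 17 rose and 2 fell. The calls ran from 0 to 7 over all libraries left out, against 0.921% to 31.4% of all genes.

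**Figure D4:**
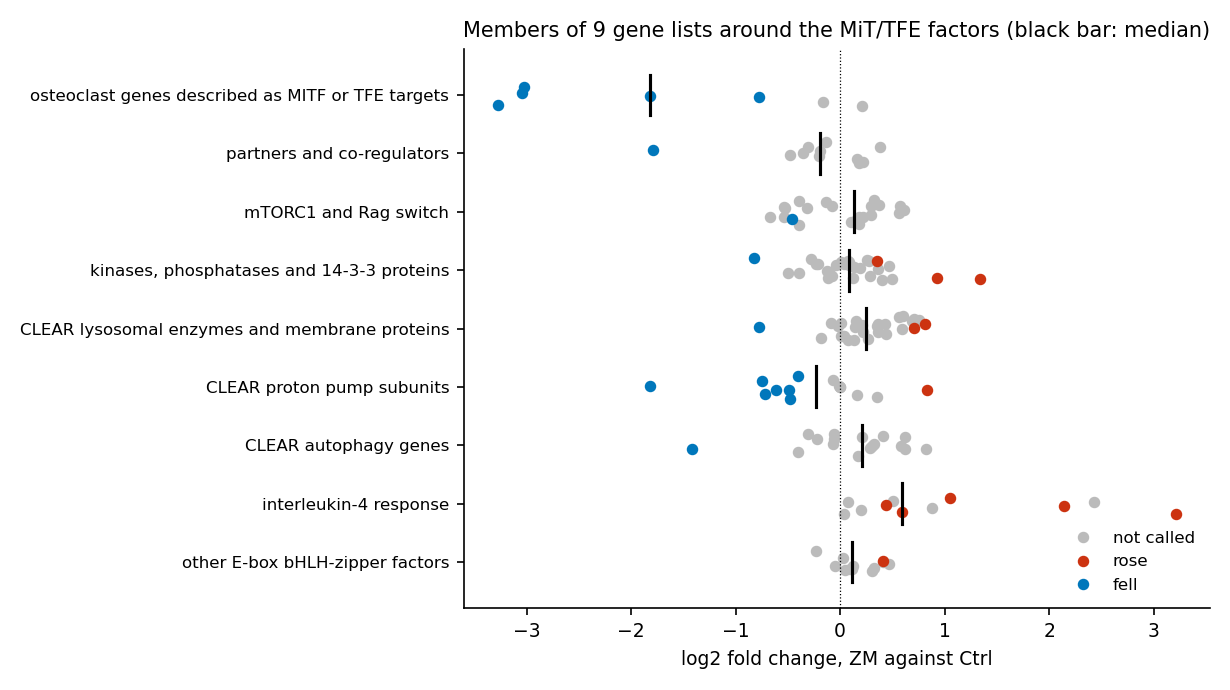
Log2 fold change of ZM against Ctrl for each tested gene of 9 lists (points), with genes past an adjusted p of 0.05 in red (rose) or blue (fell), the others in grey, and a black bar at the list median. The targets in osteoclasts have a median of -1.82 and the proton pump subunits of -0.23, while the lysosomal genes have a median of 0.24.

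The promoters of the genes above were read for the 2 motifs, CACGTG and TCATGTG, on both strands in the windows that RefSeq annotation (GRCm38.p6) gives from 250 bases before to 50 bases after a gene's start. CACGTG also lies within the longer form GTCACGTG. CACGTG was in at least 1 window of 8.09% of the 27025 genes with a window, of 15 of 22 CLEAR lysosomal genes with one (68.2%), of 4 of 9 pump genes (44.4%), of 7 of 21 nutrient switch genes (33.3%), of 1 of 13 autophagy genes (7.69%) and of 1 of 6 osteoclast target genes (16.7%). TCATGTG was in 4.31% of all genes with a window and in 2 of the 6 osteoclast target genes (33.3%), Acp5 and Clcn7. It was also in 4 of 22 CLEAR lysosomal genes (18.2%), Clcn7 among them, and in 3 of 22 of the kinase list (13.6%). For the pump it was 1 of 9 (11.1%), for the nutrient switch 2 of 21 (9.52%) and for autophagy 1 of 13 (7.69%). The CLEAR list was itself drawn from genes known for CACGTG, so its share of that motif is a description of the list. None of the 9 windows of Mitf, Tfeb, Tfe3 and Tfec held either motif. Over all windows 7.15% held CACGTG and 3.77% held TCATGTG, so 9 windows are too few to set the family apart. Tfe3, for example, has 2 windows and 14 annotated transcript starts.

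Windows of the family member that rose, of the 3 called lysosomal genes and of Ctsk are shown, with CACGTG in capitals. Tfe3 and Clcn7 have 2 windows each, of which the first along the chromosome is shown, and the other Clcn7 window holds a TCATGTG and no CACGTG. They are chrX:7762411-7762710 (forward) for Tfe3, chr8:13158911-13159210 (forward) for Lamp1, chr14:50930800-50931099 (reverse) for Pip4p1, chr17:25133141-25133440 (forward) for Clcn7 and chr3:95498960-95499259 (forward) for Ctsk, all in GRCm38.p6 and each written 5′ to 3′ on the gene's strand.
Tfe3: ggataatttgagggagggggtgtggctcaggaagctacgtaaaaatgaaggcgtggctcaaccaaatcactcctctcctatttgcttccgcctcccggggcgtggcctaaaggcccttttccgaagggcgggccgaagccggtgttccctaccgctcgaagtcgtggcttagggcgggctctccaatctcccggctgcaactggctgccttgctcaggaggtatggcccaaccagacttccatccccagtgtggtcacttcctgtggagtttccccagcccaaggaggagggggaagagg
Lamp1: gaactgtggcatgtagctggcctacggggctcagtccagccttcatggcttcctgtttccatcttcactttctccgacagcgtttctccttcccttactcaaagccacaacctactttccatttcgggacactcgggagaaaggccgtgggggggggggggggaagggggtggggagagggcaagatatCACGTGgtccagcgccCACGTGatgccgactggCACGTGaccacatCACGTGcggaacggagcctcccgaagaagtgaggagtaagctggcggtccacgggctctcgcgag
Pip4p1: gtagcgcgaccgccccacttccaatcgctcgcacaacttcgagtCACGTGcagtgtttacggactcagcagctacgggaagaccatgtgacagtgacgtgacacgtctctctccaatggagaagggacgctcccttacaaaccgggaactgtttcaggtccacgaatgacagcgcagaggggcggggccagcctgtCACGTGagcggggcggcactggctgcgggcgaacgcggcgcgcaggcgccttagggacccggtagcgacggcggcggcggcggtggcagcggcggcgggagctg
Clcn7: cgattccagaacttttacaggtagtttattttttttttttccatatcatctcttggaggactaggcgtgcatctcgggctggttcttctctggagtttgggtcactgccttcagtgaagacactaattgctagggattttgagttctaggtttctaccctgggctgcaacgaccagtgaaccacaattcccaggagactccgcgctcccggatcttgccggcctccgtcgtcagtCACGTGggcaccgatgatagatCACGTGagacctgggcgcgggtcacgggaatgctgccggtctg
Ctsk: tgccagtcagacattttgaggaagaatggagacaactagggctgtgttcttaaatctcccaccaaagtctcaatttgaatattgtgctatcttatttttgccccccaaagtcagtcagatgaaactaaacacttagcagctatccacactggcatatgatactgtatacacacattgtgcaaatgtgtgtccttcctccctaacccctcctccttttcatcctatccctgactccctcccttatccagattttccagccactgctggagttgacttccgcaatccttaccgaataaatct
The window of Lamp1, which rose, holds 4 copies of CACGTG, and those of Pip4p1, which rose, and Clcn7, which fell, hold 2 each in the windows shown. The windows of Ctsk, which fell by 3.04 on the log2 scale, and of Tfe3, which rose, hold none. Genes with the same motif in their promoter window thus included both directions. Among the 22 lysosomal genes with a window, the median log2 fold change was 0.36 for the 15 with CACGTG and 0.56 for the 7 without it.

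The genes whose pattern over the 6 libraries was most like that of each factor were taken by the root mean square difference of their centred log2 CPM, over 8804 genes. Nearest to Tfe3 were Fam76a (0.019), Crtc2 (0.029), a co-activator gene of CREB, and Ccdc12 (0.030), all of which rose, with calls lost without any 1 Ctrl library and without ZM replicate 1. Nearest to Tfeb were Grina (0.035), Bscl2 (0.041), the seipin gene of lipid droplets, and H2-K2 (0.042), with mean levels in ZM above those in Ctrl that missed the threshold. H2-K2 is uncertain, since the class I histocompatibility genes resemble one another closely and could share reads. Nearest to Tfec were Upf3a (0.019), a gene of nonsense-mediated decay, Ppp1r12c (0.020) and Rtf2 (0.026), and nearest to Mitf were Washc2 (0.014), Arih1 (0.021) and Luc7l (0.022), none of which passed the test. Each likeness is a description of 6 libraries, in which ZM replicate 3 stands apart. Since the genes were picked for their likeness over these same libraries, whether they passed the test is largely fixed by that choice. It is no separate result.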

How the data were processed

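The 6 RNA sequencing libraries were all used, 3 per group, each group taken from the treatment given in the labels. The deposited counts are whole-number counts of reads per gene and the deposited FPKM values are scaled by the authors to gene length and library size. The submitters' processing notes name HISAT2 2.2.1, featureCounts 2.0.3, DESeq2 and the mm10 build. Low counts were mostly even (72.7% to 76.3%), as where both mates of a pair are counted, so the counts were also divided by 2. The strand setting of the counting is not given in the sources used here. Entries with no symbol held 0.0024% of counts.

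Counts were filtered with edgeR's filterByExpr, scaled by TMM and tested with the edgeR 4.0.16 quasi-likelihood test over 15590 genes, with Benjamini-Hochberg adjustment. Few values, such as the family's shares, were compared by a two-sided exact permutation test. The method was tested on simulated data for this comparison, with counts drawn for the 15590 genes. Of 50 genes set at each log2 fold change, it called 47 at -2, 29 at -1, 41 at 1 and 50 at 2. It called 6 of 15390 genes set at no change. The simulation gave every gene in both groups 1 common spread, while the real ZM libraries differed more among themselves than the Ctrl libraries. Its rates therefore do not carry over to the real libraries. Alternatives were DESeq2 1.42.0, limma-voom (limma 3.58.1), other scalings and filters, a replicate block and leaving out each library.

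The members and the gene lists were chosen with earlier results of these data known. Named are the 4 members, all 7 osteoclast target genes, up to 3 called genes with the largest change per other list with a mean of at least 5 CPM, the 3 genes most like each member in pattern, with a mean of at least 10 CPM, and, per other cell type, its marker with the highest level. Positions are from GENCODE M21, which held 98.4% of the identifiers, and promoter windows from RefSeq GRCm38.p6.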

Additional observations from a re-analysis of the deposited data

How the results depend on the processing

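With 3 libraries a group, the number of calls turned on single libraries: 1711 genes (11.0%) were called by the edgeR test and 3295 (21.1%) by DESeq2. Leaving out 1 library gave between 148 (0.921%) and 5023 (31.4%). The log2 fold change then ran from -0.26 to -0.11 for Mitf, from 0.47 to 1.00 for Tfeb, from 0.38 to 0.56 for Tfe3 and from 0.25 to 0.53 for Tfec, with no change of sign. Tfeb passed the threshold with no filter on low counts (0.81), with DESeq2 (0.81) and with the replicate block (0.75). Calls ran from 1 to 6 for the partners, from 0 to 13 for the nutrient switch and for the kinase list, from 0 to 14 for the lysosomal genes, from 1 to 9 for the pump, from 0 to 7 for autophagy, from 0 to 6 for the interleukin-4 response and from 0 to 3 for the other E-box factors. DESeq2 called 2 partners, 9 nutrient switch genes, 8 of the kinase list, 9 lysosomal and 5 autophagy genes, against 21.1% of all genes. With no filter, where 7.98% of all genes were called, the calls were 7 for the nutrient switch, 6 for lysosomal genes, 2 for autophagy and 0 for E-box factors. Without composition scaling (9.84% of all genes) the calls were 2 for the nutrient switch, 2 for autophagy and 0 for E-box factors. The nutrient switch had 2 with upper-quartile factors (10.6% of all genes) and 2 where 1 CPM in all libraries was required (13%). The cause of these shifts was not tested. S100a8, far from any call, changed sign with limma-voom (0.0078), with the replicate block (0.013) and between libraries left out (-0.17 to 0.10).

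Whether the library numbers pair the samples was not settled, since 3 libraries a group are too few for such a check. Deviations of same-numbered libraries correlated at 0.031, 0.047 and 0.107, and those of differently numbered ones at -0.137 to 0.089. Not every library correlated best with its own number. A fit with the number as a replicate block gave 1679 calls over all genes (10.8%), 1360 of them shared. It called 3 genes in the nutrient switch, 2 in the kinase list, 2 in autophagy and 0 among E-box factors. It ended the calls of Rragd (adjusted p = 0.0687), Mapk14 (0.0876), Mxd1 (0.0770), Crtc2 (0.0514) and Ccdc12 (0.0501).

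Of the 26 named genes that were called, 6 passed without any single library: Acp5, Ctsk, Oscar, Atp6v0d2, Nfatc1 and Hbb-bs. The others lost the call without at least 1 Ctrl library.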

Other observations

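Of the genes of the interleukin-4 response, in which Tfec takes part in mouse macrophages, 5 rose with ZM. Of 13 listed genes, 11 were tested, 6 did not pass the test and none fell (45.5% called, against 11.0% of all genes), with a median log2 fold change of 0.59. None of the 11 was called in any of the 3 fits without a Ctrl library, in which 0.921% to 1.40% of all genes were. Csf3r, which encodes the receptor of G-CSF and has been described as needing Tfec for its induction by interleukin-4 in mouse macrophages, was at 7.37, 7.44 and 6.92 CPM in the Ctrl libraries and at 19.6, 19.3 and 57.2 CPM in the ZM libraries. Its groups were apart and ZM replicate 3 was far above the rest, with a log2 fold change of 2.14 (SE 0.43, edgeR adjusted p = 0.0248), which was 1.43 without that library. Mrc1, the mannose receptor gene, which is also among the macrophage markers, rose with a log2 fold change of 1.05 (SE 0.23, adjusted p = 0.0330), and Egr2, a zinc finger factor gene, with 0.59 (SE 0.12, adjusted p = 0.0258). The calls of Csf3r and Mrc1 were lost without any 1 Ctrl library, and that of Egr2 also without ZM replicate 1.

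Other basic helix-loop-helix and zipper factors that read E-boxes, such as the Max, Usf and Srebf families, showed 1 rise and no fall among 12 tested genes. This was 8.33%, against 11.0% of all genes, with a median log2 fold change of 0.12. The gene that rose was Mxd1, a partner gene of Max, from 18.0 ± 0.197 to 23.9 ± 1.12 CPM (SD, n = 3 each), a log2 fold change of 0.41 (SE 0.09, edgeR adjusted p = 0.0359). Its call was lost without any 1 Ctrl library, without ZM replicate 1, with no filter on low counts (adjusted p = 0.0598) and without composition scaling (adjusted p = 0.0585).

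Markers of 2 lineages that depend on Mitf were low in all libraries. Of 12 melanocyte markers 4 had counts, with none for Tyr, Tyrp1 or Sox10, and the sums were 8.27 to 8.94 CPM in Ctrl and 5.13 to 5.78 CPM in ZM, nearly all from Slc24a5, whose exons overlap those of Myef2 by 921 bases. Of 11 mast cell markers 5 had counts, with none for Tpsb2, Cma1 or Fcer1a, and the sums were 3.41 to 4.40 CPM in Ctrl and 0.636 to 1.45 CPM in ZM, and the most abundant, Kit, fell with a log2 fold change of -1.89 (SE 0.43, edgeR adjusted p = 0.0366). The endothelial sum went from 41.2-51.8 CPM to 7.18-21.2 CPM, nearly all of it Kdr, a VEGF receptor gene, which fell with a log2 fold change of -1.71 (SE 0.35, adjusted p = 0.0274). The most abundant markers of neutrophils (S100a8), dendritic cells (Zbtb46), B cells (Cd79a) and T or NK cells (Klrb1c) had means under 3 CPM, and so did Hbb-bs of erythroid cells, which fell with a log2 fold change of -2.63 (SE 0.28, adjusted p = 0.00392). Runx2, the most abundant of the osteoblast or stromal markers, was at 17.3 ± 0.204 and 12.1 ± 2.10 CPM (SD, n = 3 each; adjusted p = 0.0572).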
